A study of Mus musculus with 12 samples.

Results

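Acetylation of lysine 9 on histone H3 (H3K9Ac) was mapped by ChIP-seq in mouse small pre-B cells, and the 2 deposited H3K9Ac peak lists, 1 per biological replicate, are described here on chromosomes 1 to 19 and X. The members are all listed H3K9Ac peaks on those chromosomes, 10117 in replicate 1 and 16453 in replicate 2. They make 26570 of the 53086 peaks in the 6 ChIP-seq lists of the study. A peak was called shared when it overlapped a peak of the other H3K9Ac list by at least 1 bp, and single when it did not.

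Small pre-B cells are bone marrow B cell precursors. They had been sorted as lineage-negative cells with B220, without CD43 and surface IgM, and with low forward scatter, and the strain given for the ChIP-seq samples was C57BL/6. The labels name wild-type and Brwd1-mutant mice as cell sources for the study, but give no genotype, age, sex or number of animals for the ChIP-seq samples, and do not say whether mice were pooled. Chromatin sheared to between 200 and 600 bp was precipitated with antibodies to H3K9Ac, to the doubly modified histone H3 mark H3S10pK14Ac, or to BRWD1, with 2 biological replicates per antibody. The 2 input libraries and 4 ATAC-seq libraries of the study were not used here. The cell type could not be checked against the promoters of marker genes because no gene annotation of build mm9 was at hand.

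H3K9Ac is written by histone acetyltransferases and removed by histone deacetylases. Acetylation neutralises the charge of the lysine side chain, and the mark is known from nucleosomes around the start sites of transcribed genes and from active enhancers. BRWD1 is a bromodomain protein that binds acetylated histone tails and is known for its part in opening the immunoglobulin kappa locus at the small pre-B stage.

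Each listed peak carries the authors' score, on a scale of −log10 of the peak caller's significance, and no listed score was below 5. The median score was 6.98 in replicate 1 and 6.25 in replicate 2, and the highest scores were 676 and 106.6. Replicate 1 peaks were wider, with a median of 375 bp (209 to 8054 bp) against 208 bp (146 to 4370 bp) in replicate 2. Together they covered 4690 kb in replicate 1 and 4307 kb in replicate 2. The shorter list therefore covered slightly more of the genome. Read depth behind the lists is unknown, and scores were compared only within a list.

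Shared peaks numbered 4367 of 10117 in replicate 1 and 4808 of 16453 in replicate 2. This is 43.2% of replicate 1 (95% Wilson interval 42.2 to 44.1) and 29.2% of replicate 2 (28.5 to 29.9), and these intervals cover the counting of peaks only. The shared peaks held 53.8% of the bases covered in replicate 1 and 41.7% of those covered in replicate 2. The bases common to both lists came to 1496 kb, which was 31.9% of the bases in replicate 1, 34.7% of those in replicate 2 and 19.9% of their union.

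How often a peak was found again rose with its score in both lists. Among replicate 1 peaks scored from 5 to below 6, 19.8% were shared, compared with 47.6% from 7 to 8, 66.7% from 10 to 15 and 94.3% from 20 to 50. Replicate 2 peaks followed the same order, with 12.9%, 30.0%, 66.0% and 90.8% in those bands. Above a score of 50, 39 of 40 replicate 1 peaks and 34 of 34 replicate 2 peaks were shared. At scores of 10 or more, 1907 of 2510 replicate 1 peaks and 1726 of 2302 replicate 2 peaks overlapped some peak of the other list. With both lists limited to such scores, 40.8% of replicate 1 and 47.3% of replicate 2 peaks overlapped.

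Width ordered the peaks in a similar way. In replicate 1, 22.9% of peaks between 200 and 300 bp were shared, 58.2% of those between 500 and 700 bp and 87.4% of those between 1 and 2 kb. In replicate 2 the shares were 28.3%, 76.1% and 98.0%, and 11.2% below 200 bp. All 47 replicate 1 peaks and all 6 replicate 2 peaks of 2 kb or more were shared.

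**Figure D1:**
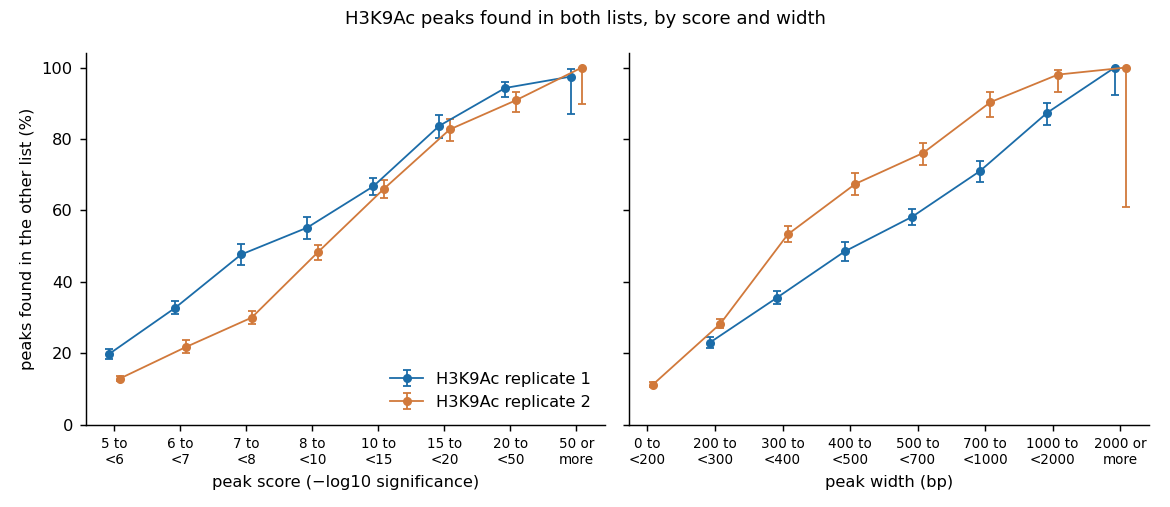
Percent of H3K9Ac peaks found in the other list by score band (−log10 scale) and by width band (bp), with 1 line per replicate and bars for 95% Wilson intervals. Both lines climb with score, from 19.8% and 12.9% at scores of 5 to 6 to 39 of 40 and 34 of 34 at 50 or more, and both climb with width.

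At scores below 20, wider peaks were shared more often within each score band of replicate 1. Among the lowest-scored replicate 1 peaks (5 to 6), 15.1% of those between 200 and 400 bp were shared, 35.8% between 400 and 800 bp and 51.2% above 800 bp. In replicate 2, 7.81% of such peaks below 200 bp were shared, 19.8% between 200 and 400 bp and 50.2% between 400 and 800 bp. At scores of 20 or more width no longer ordered the peaks of replicate 1, with 94.8% shared between 200 and 400 bp, 92.5% between 400 and 800 bp and 96.5% above 800 bp. In replicate 2 these shares were 88.6%, 91.0% and 90 of 90. Score ordered peaks of one width band in turn, except in thin groups of replicate 2, where 6 of 6 peaks above 800 bp were shared at scores of 5 to 6 and 4 of 6 at scores of 6 to 7, and where 0 of 2 peaks below 200 bp were shared at 20 or more. A wide peak has more bases to overlap, so all peaks were also set to 200 bp around their centres. The shared peaks by that rule were 34.1% of replicate 1 and 21.2% of replicate 2, and their deposited widths were still 1.25 and 1.62 times those of the remaining peaks.

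Taken over whole lists, shared peaks were wider and better scored than single ones in both replicates. The median width was 480 bp for shared and 329 bp for single peaks in replicate 1, a ratio of 1.46. In replicate 2 it was 314 bp against 188 bp, a ratio of 1.67. The classes overlapped broadly: from the 10th to the 90th percentile, replicate 1 widths ran from 268 to 985 bp for shared peaks and from 224 to 598 bp for single peaks. Peaks of 1 kb or more were nearly confined to the shared class, with 420 shared and 54 single in replicate 1 and 106 and 2 in replicate 2.

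The median score was 8.97 for shared and 6.03 for single peaks in replicate 1, and 8.33 against 5.90 in replicate 2. As a percentile of its own list, the mean score of shared peaks lay 26.6 points above that of single peaks in replicate 1 and 27.4 points above in replicate 2. Of the shared peaks, 43.7% in replicate 1 and 35.9% in replicate 2 scored 10 or more, compared with 10.5% and 4.95% of the single peaks. Peaks of one list are not replicates of each other, so these contrasts have no test within a list. Over the 2 lists an exact sign-flip test could not give a two-sided p below 0.5, and both lists are therefore given side by side.

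Merging overlapping peaks of both lists gave 4252 shared regions with a median length of 563 bp. In 3707 of them (87.2%), 1 peak of each list met 1 peak of the other. A further 433 regions (10.2%) held 1 replicate 1 peak and several replicate 2 peaks, while 68 showed the reverse and 44 held several of each. Accordingly, 480 replicate 1 peaks covered 2 or more replicate 2 peaks, and 114 replicate 2 peaks covered 2 or more replicate 1 peaks. One replicate 1 peak covered as many as 6 replicate 2 peaks.

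Within the 3707 one-to-one regions, replicate 1 peaks had a median width of 451 bp and replicate 2 peaks of 315 bp, and 77.6% of the pairs were wider in replicate 1. The replicate 2 peak lay entirely inside the replicate 1 peak in 40.3% of pairs and enclosed it in 8.85%. The median replicate 2 peak began 44 bp further right and ended 48 bp further left, so that it was narrower by similar amounts at both edges. The centres lay a median of 81.5 bp apart, and the overlap took in a median of 99.5% of the shorter peak. A small distance between centres follows from choosing overlapping peaks. Across these pairs the Spearman correlation of the 2 scores was 0.346 and that of the 2 widths was 0.316. These are descriptions over peaks that share their 2 libraries.

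The 10 shared regions ranked highest by score in both lists were led by the immunoglobulin loci. The first, on chromosome 12 from 114662424 to 114668067 in the heavy chain (Igh) window, scored 170.9 in replicate 1 and 106.6 in replicate 2 and held 2 peaks of each list. The second, on chromosome 6 from 70668648 to 70676977 in the kappa (Igk) window, joined 1 replicate 1 peak of 8054 bp and score 676 to 5 replicate 2 peaks with a best score of 75.1. Compact regions ranked directly behind these long ones.

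A region of 464 bp on chromosome 11, 68886581 to 68887044, scored 80.3 and 85.1. Another on chromosome 11, 83084384 to 83085266, scored 98.8 and 72.9. Both lay in a BRWD1 replicate 2 peak and in no other list. All 10 regions overlapped a BRWD1 replicate 2 peak, compared with 8.36% of all replicate 1 and 5.8% of all replicate 2 H3K9Ac peaks. This overlap rose with score, to 33.1% of replicate 1 and 39.5% of replicate 2 shared peaks scored 20 or more. Of the 10 regions, 4 lay in peaks of all 6 lists: the Igh and Igk regions, chromosome 4 at 124546311 to 124546892 and chromosome 13 at 92813716 to 92814144.

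All 5 of the widest peaks in each list were shared. After the Igk peak, replicate 1 was widest on chromosome 12 at 114663347 to 114668015 (4669 bp) and on chromosome 15 at 72983205 to 72987627 (4423 bp, score 27.4). The chromosome 15 peak covered 6 replicate 2 peaks and met no BRWD1 peak. A peak of 3767 bp on chromosome 2, 58009668 to 58013434, was matched by one of 2901 bp in replicate 2. The fifth, on chromosome 18 from 65960327 to 65963789, was 3463 bp wide and covered 4 replicate 2 peaks.

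Shared peaks lay closer to other peaks of their own list. The median gap from a peak's edge to its nearest neighbour was 3053 bp for shared and 20268 bp for single peaks in replicate 1, and 918 bp against 29965 bp in replicate 2. Single gaps were thus 6.64 times longer in replicate 1 and 32.6 times longer in replicate 2. A neighbour within 1 kb was present for 44.1% of shared and 26.6% of single peaks in replicate 1, and for 50.9% and 15.3% in replicate 2. The size of the gap ratio rested on close neighbours: with peaks up to 500 bp apart merged first it was 1.61 and 2.20. With both lists limited to scores of 10 or more, and shared peaks and gaps taken anew, it was 1.58 and 2.36. Whole-list classes at scores of 10 to 20 had median gaps of 1787.5 bp (shared) and 11789 bp (single) in replicate 1. In replicate 2 these were 886 and 5161 bp. At scores of 20 or more they were 780 and 11597 bp in replicate 1, with 29 single peaks. The replicate 2 values there were 384 and 406.5 bp, with 38 single peaks.

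**Figure D2:**
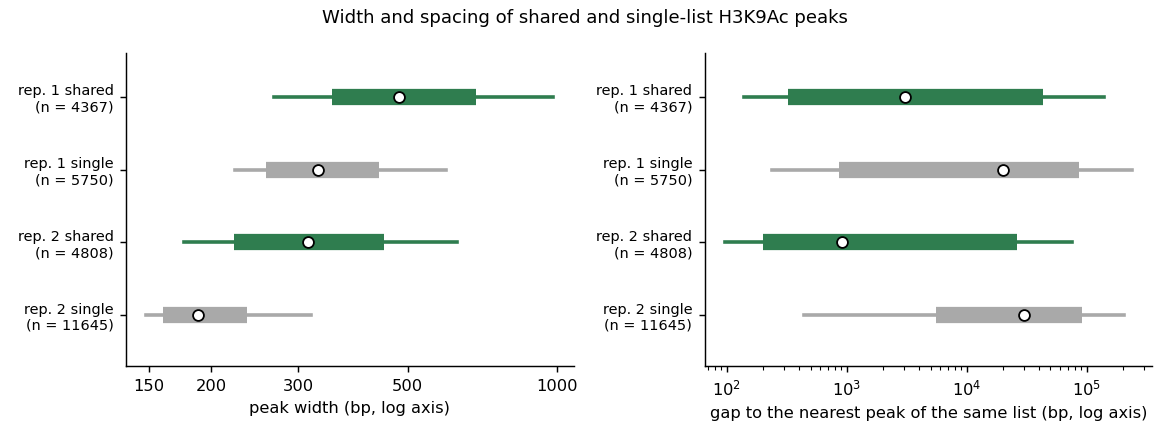
Width in bp and gap to the nearest peak of the same list in bp (both axes logarithmic) for shared and single H3K9Ac peaks of each replicate, drawn as the median with bars from the 25th to the 75th and from the 10th to the 90th percentile. Shared peaks are wider (480 against 329 bp and 314 against 188 bp) and closer together (3053 against 20268 bp and 918 against 29965 bp), with wide overlap between the classes.

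Within score bands the same order held for width in all 5 bands of both lists. Among replicate 1 peaks scored 10 to 20, shared peaks had a median width of 570 bp and single peaks of 450 bp. In replicate 2 these widths were 394 and 283.5 bp. Median gaps were also shorter for shared peaks in each band. The share with a neighbour within 1 kb had 1 exception: among replicate 2 peaks scored 20 or more, it was 61.0% for shared and 68.4% for the 38 single peaks.

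The gaps between consecutive peaks fell into 2 ranges in both lists. Short gaps of at most 1 kb made up 1891 of 10097 consecutive pairs in replicate 1 (18.7%) and 2433 of 16433 in replicate 2 (14.8%). In logarithmic bins, the trough between the short and the long gaps lay between 2154 and 3162 bp in replicate 1, with 119 pairs, and between 1468 and 2154 bp in replicate 2, with 165 pairs. Gaps were most frequent between 100000 and 146780 bp, with 757 and 1430 pairs. The shortest gap was 50 bp in each list.

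**Figure D3:**
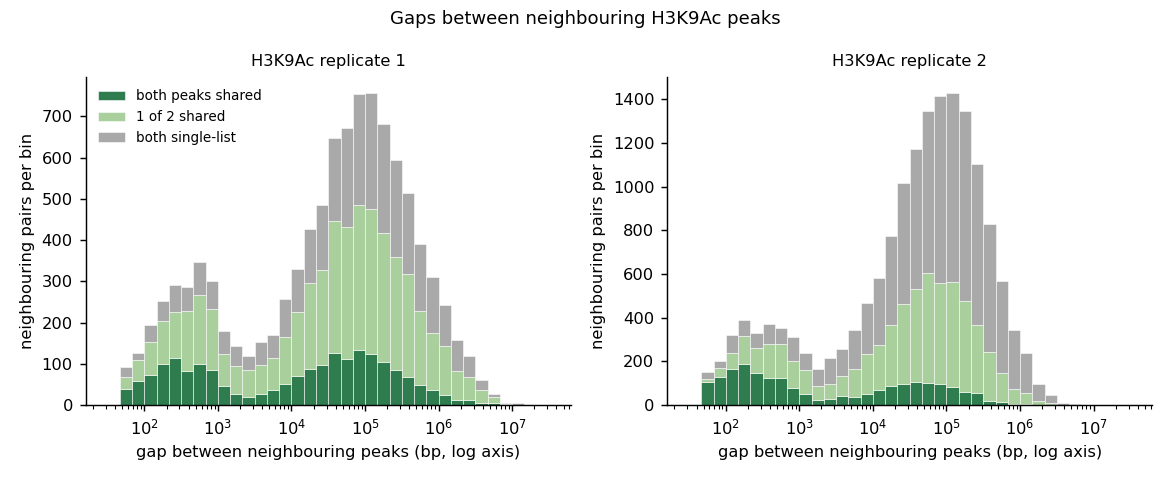
Number of consecutive H3K9Ac peak pairs by the gap between them (bp, logarithmic axis) in each replicate, split by how many peaks of the pair were shared. Each list has a short-gap group below 1 kb, a trough of 119 and 165 pairs per bin between 1468 and 3162 bp, and a long-gap group that peaks between 100000 and 146780 bp.

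Short-gap pairs were rich in shared peaks. Both peaks were shared in 651 (34.4%) of the replicate 1 pairs and in 1059 (43.5%) of the replicate 2 pairs, compared with 19.9% and 12.7% of all consecutive pairs. The median gap within short-gap pairs was 313 bp in replicate 1 and 254 bp in replicate 2, and the median distance between their centres was 856 and 628.5 bp.

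The other list often covered the middle of such a gap. Where both peaks were shared, a replicate 2 peak covered the middle of 190 replicate 1 gaps (29.2%), and a replicate 1 peak covered the middle of 643 replicate 2 gaps (60.7%). Where both peaks were single, this was seen for 6 of 399 gaps in replicate 1 and 6 of 562 in replicate 2. The difference between the classes is largely set by their definition, since a peak of the other list must then fit between 2 single peaks without touching either. BRWD1 replicate 2 peaks covered the middle of 1.27% and 1.19% of all short gaps, and H3S10pK14Ac replicate 2 peaks of 0.212% and 0.247%. The peak numbers in the names gave no missing number, and so no unlisted candidate, between the peaks of 96.6% and 93.4% of short-gap pairs. Over all consecutive pairs this was 37.1% and 33.6%. The share is partly set by gap length, since the narrowest listed peaks were 209 and 146 bp wide and many short gaps could not hold one. At gaps of 750 to 1000 bp it was 92.2% and 77.5%.

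A cluster was counted where at least 3 peaks of a list followed each other with gaps of at most 5 kb. Replicate 1 had 429 clusters with 1521 of its 10117 peaks, and replicate 2 had 675 with 2426 of its 16453. Most were small: 291 and 446 held exactly 3 peaks, and 49 and 85 held 5 or more. Their median length was 3631 bp in replicate 1 and 2705 bp in replicate 2.

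Clusters held 18.6% of shared and 12.3% of single peaks in replicate 1, and 29.9% and 8.48% in replicate 2. Within score bands this order turned only in replicate 1 at scores of 7 to 10 (16.6% shared, 17.0% single). Where 1 wide peak of a list overlaps several peaks of the other, each of these counts as shared and towards a cluster. The cluster difference was not recomputed with close peaks merged. In replicate 2 the shared share climbed from 18.2% of lone peaks through 43.6% of peaks in pairs to 59.3% of those in clusters. In replicate 1 it was 36.1%, 52.0% and 53.3%, so pairs and clusters differed little there. Most clusters touched some peak of the other list, namely 91.6% in replicate 1 and 88.0% in replicate 2. A high share is partly built in, since a cluster has at least 3 peaks and 43.2% and 29.2% of all peaks were shared. The share for 3 or more peaks outside clusters was not computed. A cluster of the other list was touched by 198 clusters in each replicate, which is 46.2% of those in replicate 1 and 29.3% of those in replicate 2. The clusters in which every peak was shared numbered 71 and 157, and those without a shared peak 45 and 87.

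The cluster with the most peaks was found in replicate 2, on chromosome 9 from 3015603 to 3036680. It held 17 peaks, of which 6 were shared, with a best score of 27.3, and 5 replicate 1 peaks lay inside it. The first base that any list covers on that chromosome is 2999934, just before this cluster. The largest clusters of replicate 1 held 9 peaks, on chromosome 11 at 97855753 to 97864096 with 5 shared and a best score of 51.8, on chromosome 11 at 87558086 to 87571196 with 4 shared, and on chromosome 7 at 87336649 to 87355870 with 2 shared.

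One site was among the 5 largest clusters of both lists. On chromosome 7, replicate 1 had 8 peaks from 51783666 to 51791202, 6 of them shared and the best scored 60.5, and replicate 2 had 9 peaks from 51784293 to 51792412, 7 of them shared. The replicate 2 cluster on chromosome 15 from 72979548 to 72992847, with 8 of 9 peaks shared, spans the 4423 bp peak of replicate 1 described above. The cluster on chromosome 6 from 99285796 to 99293035 had 7 of 9 peaks shared.

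Some single peaks were near misses. A peak of the other list lay within 1 kb of 1408 single peaks in replicate 1 (24.5%) and of 1440 in replicate 2 (12.4%). At the other end, 1478 single peaks of replicate 1 (25.7%) and 6235 of replicate 2 (53.5%) were more than 50 kb from any peak of the other list. These distant peaks had median scores of 6.03 and 5.90 and median widths of 316 and 181 bp. For single peaks near the other list the median scores were 6.29 and 6.61 and the median widths 356 and 222 bp.

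The 5 highest-scored single peaks of each list divided between near and distant. Of these 10, 5 lay between 146 and 647 bp from a peak of the other list. The highest in replicate 1, on chromosome 9 at 43118060 to 43118471, scored 50.5 and ranked 37 in its list, but lay 231532 bp from the nearest replicate 2 peak. It overlapped both BRWD1 lists and H3S10pK14Ac replicate 2. The replicate 1 single peaks on chromosome 8 at 55391981 to 55392389 (score 37.0) and on chromosome X at 155643836 to 155644273 (score 34.1) also overlapped both BRWD1 lists, and the former lay in all 4 other lists.

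In replicate 2 the highest single peak, on chromosome 5 at 33015756 to 33016399, scored 46.8 and lay 179797 bp from a replicate 1 peak. It overlapped H3S10pK14Ac replicate 2 and neither BRWD1 list. The next 3 were all near misses, on chromosome 12 at 8928367 to 8928689 (score 39.9, 545 bp away), on chromosome 7 at 148414404 to 148414672 (39.5, 388 bp) and on chromosome 13 at 21871306 to 21871708 (37.7, 146 bp).

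H3K9Ac peaks were spread unevenly over chromosomes. Chromosome 11 had the highest density, with 6.95 peaks per Mb in replicate 1 and 10.1 in replicate 2, followed by chromosome 19 with 6.49 and 8.90. Chromosome X had the lowest, with 1.11 and 1.67 peaks per Mb, and chromosome 14 was the lowest autosome with 3.01 and 5.20. Over all 20 chromosomes the densities were 3.93 and 6.39 peaks per Mb. The order of chromosomes was close between lists, with a Spearman correlation of 0.929 over 20 chromosomes as a description.

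The spread was wider for shared than for single peaks. From the lowest to the highest chromosome, density differed 8.45-fold in replicate 1 and 8.36-fold in replicate 2 for shared peaks, and 5.20-fold and 5.23-fold for single peaks. The share of peaks that was shared was highest on chromosome 17 in replicate 1 (48.2%) and on chromosome 19 in replicate 2 (37.1%). It was lowest on chromosome X in replicate 1 (33.5%) and on chromosome 14 in replicate 2 (23.8%).

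Chromosome X stood at 0.268 and 0.249 of the autosomal peak density in the 2 lists. For shared peaks alone it stood at 0.207 and 0.214, and for single peaks at 0.315 and 0.264. Its candidate peaks, counted from the peak numbers before the score limit, stood at 0.326 and 0.368. Of these candidates, 22.5% were listed on X in replicate 1 and 18.3% in replicate 2, the lowest shares of any chromosome. The same X-to-autosome ratio was 0.591 and 0.432 for BRWD1 and 0.451 and 0.386 for H3S10pK14Ac. The 0.451 rests on a list of only 102 peaks, of which 2.94% lay on X. The sex of the mice is not given in the labels.

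**Figure D4:**
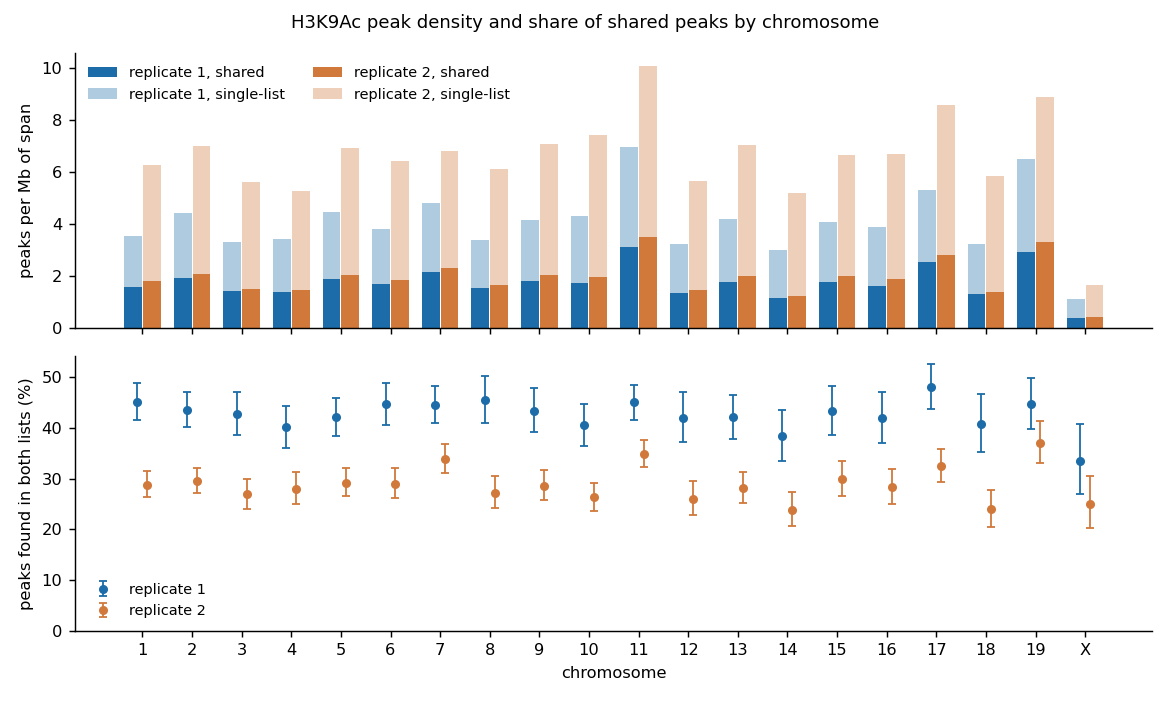
Upper panel, H3K9Ac peaks per Mb of span on each of 20 chromosomes, stacked as shared (dark) and single (pale) peaks with 1 bar per replicate; lower panel, percent of peaks found in both lists with bars for 95% Wilson intervals. Chromosome 11 is densest (6.95 and 10.1 peaks per Mb) and chromosome X least dense (1.11 and 1.67), and the shared percentage is lowest on X in replicate 1 (33.5%) and on chromosome 14 in replicate 2 (23.8%).

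At a finer scale, 2588 windows of 1 Mb held a mean of 3.91 replicate 1 peaks and 6.36 replicate 2 peaks, with medians of 2 and 5. The most in any window was 37 in each list. No peak was found in 741 windows (28.6%) in replicate 1, in 258 (9.97%) in replicate 2 and in 207 in both. The variance of the count was 6.34 and 5.84 times its mean, and both classes contributed: it was 3.87 and 4.49 for shared and 3.60 and 3.32 for single peaks.

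Windows rich in one list were rich in the other, with a Spearman correlation of 0.836 and a Pearson correlation of 0.862 over windows. Single peaks by definition do not overlap between lists, yet their counts per window had a Spearman correlation of 0.666. Windows are not independent samples, and these values carry no p. The share of shared peaks rose with window density, from 32.6% in windows with 1 or 2 replicate 1 peaks to 49.4% in those with 21 or more, and from 9.08% to 43.9% in replicate 2.

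The densest windows were on chromosome 3 from 95 to 96 Mb, with 37 replicate 1 and 30 replicate 2 peaks, and on chromosome 7 from 52 to 53 Mb, with 28 and 37. Chromosome 11 from 106 to 107 Mb followed with 29 and 34, chromosome 7 from 134 to 135 Mb with 28 and 32, and chromosome 15 from 81 to 82 Mb with 27 and 33. In the chromosome 3 window 19 peaks of each list were shared. The longest stretches without a peak of either list were on chromosome X, from 20942708 to 32101068 (11.2 Mb) and from 57290783 to 65481719 (8.19 Mb), and on chromosome 7 from 39057268 to 46772625 (7.72 Mb). They were not empty of BRWD1 peaks: its lists had 7 and 9 in the first, 9 and 12 in the second, and 1 and 2 in the third. H3S10pK14Ac replicate 2 had 1, 14 and 2 peaks there. The short H3S10pK14Ac replicate 1 list, with 102 peaks, had 0 in each.

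Windows in whole megabases were placed by general knowledge over 7 loci. The major histocompatibility complex, which encodes antigen-presenting molecules, held 78 replicate 1 and 106 replicate 2 peaks on chromosome 17 from 33 to 38 Mb. That is 15.6 and 21.2 peaks per Mb, and 46 and 55 of the peaks were shared. These were 59.0% and 51.9% of the window's peaks, against 43.2% and 29.2% of whole lists. The histone gene cluster on chromosome 13 from 21 to 24 Mb held 45 and 47 peaks in 3 Mb. Of these, 21 and 22 were shared (46.7% and 46.8%), in replicate 1 near the share of the whole list.

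The light chain window at Igl, on chromosome 16 from 19 to 20 Mb, held 11 and 24 peaks with 7 and 11 shared, but its best scores were modest at 18.0 and 15.2. The Igk window, 4 Mb on chromosome 6, held 18 and 34 peaks with 9 and 15 shared, and the Igh window, 4 Mb on chromosome 12, held 27 and 47 with 11 and 14 shared. In the Igh window 40.7% and 29.8% of peaks were thus shared, near the 43.2% and 29.2% of whole lists. Igk had 4.50 and 8.50 peaks per Mb, against 3.93 and 6.39 over all 20 chromosomes.

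The T cell receptor beta window (Tcrb, chromosome 6 from 40 to 42 Mb) held 3 and 5 peaks, none of them shared, with best scores of 8.14 and 6.94. The olfactory receptor gene cluster on chromosome 2 from 85 to 90 Mb, which encodes odorant receptors of the nose, held 0 and 5 peaks, none shared, and the best scored 7.09. Counts in such windows are small and were not tested.

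Most H3K9Ac peaks met no peak of the other antibodies, whichever class was considered. No overlap with any of the 4 other lists was found for 82.6% of shared and 91.7% of single peaks in replicate 1, and for 84.2% and 93.8% in replicate 2. Over whole lists, BRWD1 replicate 2 overlapped 8.36% of replicate 1 and 5.8% of replicate 2 H3K9Ac peaks. H3S10pK14Ac replicate 2 overlapped 3.94% and 4.5%, BRWD1 replicate 1 overlapped 6.31% and 2.15%, and H3S10pK14Ac replicate 1, with only 102 peaks, overlapped 0.366% and 0.194%.

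Shared peaks met BRWD1 replicate 2 more often than single peaks in both lists. The shares were 13.1% against 4.75% in H3K9Ac replicate 1 and 11.9% against 3.27% in replicate 2. Within score bands this order turned only at scores of 20 or more in replicate 1 (33.1% against 37.9%), where 29 peaks were single. The shares were nearly equal at scores of 10 to 20 in replicate 2, at 13.5% and 13.4%. H3S10pK14Ac replicate 2 gave 7.44% against 1.29% and 6.78% against 3.56% over whole lists. In H3K9Ac replicate 2 its order turned at scores of 6 to 7 (2.84% shared, 5.24% single) and of 10 to 20 (8.13% and 9.48%). H3S10pK14Ac replicate 1 met 32 shared and 5 single peaks in H3K9Ac replicate 1. In H3K9Ac replicate 2 it met 32 shared peaks and 0 of 11645 single ones, which allows a share of up to 0.0258% by the limit of 3 counts and of 0.0330% by the Wilson interval.

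BRWD1 replicate 1 did not order the classes in the same way in the 2 lists. In H3K9Ac replicate 2 it met 5.53% of shared and 0.747% of single peaks. In H3K9Ac replicate 1 the shares were 6.25% and 6.35%, or 273 and 365 peaks. Within score bands, single peaks of H3K9Ac replicate 1 met it more often than shared peaks in every band. The shares were 3.23% of shared and 3.55% of single peaks at scores of 5 to 6. They were 6.76% and 16.7% at 10 to 20, and 16.8% and 37.9% at 20 or more, with 29 single peaks. In H3K9Ac replicate 2 shared peaks met it more often in every band, with 5.17% against 2.79% at 10 to 20.

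The 365 single peaks of H3K9Ac replicate 1 that met BRWD1 replicate 1 had a median gap of 172461 bp to the nearest peak of their list, against 20268 bp for all single peaks. Long gaps were also seen where BRWD1 replicate 1 met other H3K9Ac peaks: 82966 bp against 3053 bp for shared peaks of replicate 1, 37926 bp against 918 bp for shared peaks of replicate 2 and 41782 bp against 29965 bp for its single peaks. The 365 peaks had a median width of 363 bp and a median score of 7.20, and 107 of them scored 10 or more. Of these 365 peaks, 191 (52.3%) also met BRWD1 replicate 2. Both are labelled replicate 1, and the labels do not say whether samples of the same number came from the same cells or were run together.

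**Figure D5:**
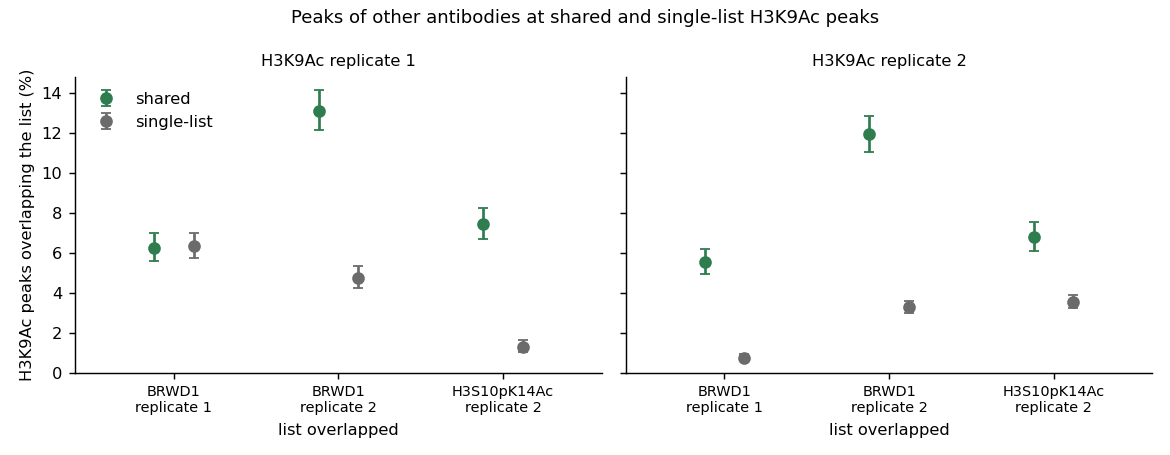
Percent of shared and single H3K9Ac peaks of each replicate that overlap each BRWD1 list and H3S10pK14Ac replicate 2, with bars for 95% Wilson intervals. Shared peaks are higher for BRWD1 replicate 2 (13.1% against 4.75% and 11.9% against 3.27%), while BRWD1 replicate 1 gives 6.25% and 6.35% in H3K9Ac replicate 1.

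As background, the 2 H3K9Ac lists were set against the 4 other lists. Their median widths of 375 and 208 bp lay above the range of the others (62.5 to 196 bp). A neighbour within 1 kb was present for 34.1% and 25.7% of H3K9Ac peaks and for 2.10% to 3.92% in the other lists. The variance of the 1 Mb counts was 6.34 and 5.84 times the mean, compared with 1.62 to 2.13 times. In an exact two-sided permutation test of 2 lists against 4, the smallest p possible is 0.133. Width, near neighbours, variance to mean, median gap, listed share of candidates and the share of peaks on X each reached it (0.156 adjusted over 7 tests by Benjamini-Hochberg). The share found in the other replicate gave an exact permutation p of 0.267. This share was 11.8% and 6.62% in the BRWD1 lists. In the H3S10pK14Ac lists, of 102 and 10637 peaks, it was 30.4% and 0.301%. A partner list of 102 peaks leaves room for few overlaps, which bounds the 0.301%. The lists differ in length, and the part of length in these differences was not tested.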

How the data were processed

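The 6 ChIP-seq peak lists hold position, name and score per peak on mouse build mm9. The deposited score is on a −log10 scale. The sources used here do not state whether it stands for p or q. Per the submitters' processing notes, Trimmomatic 0.32, BWA 0.7.5, Picard and MACS2 were used. Peak numbers in the names exceed list lengths (37160 and 61615 as last H3K9Ac numbers), and numbers missing from a list were taken as unlisted candidates. Read depth is unknown, so no interval beyond the counting of peaks is given.

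Overlaps, gaps, clusters and windows were computed with Python 3.11.15, pandas 2.3.3, numpy 2.4.6 and scipy 1.17.1, and the code was tested on simulated intervals. Positions are 1-based. Chromosome spans run from the first to the last base of any list. Named regions were the 10 best shared regions by mean score percentile, the 5 best single peaks, 5 widest peaks and 5 largest clusters per list, the 5 densest windows, the 3 longest empty stretches, the extreme chromosomes and 7 locus windows. Not every one of them is printed. Members, lists and measures were chosen with earlier results of these data known. Alternatives changed the overlap rule, widths, score limit, list length, cluster rule, windows and sequence names. Distances to start sites, gene names and sequences are not reported here, because no mm9 genome or annotation was used.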

Additional observations from a re-analysis of the deposited data

Results flagged for a closer look

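H3K9Ac replicate 2 listed 15 peaks on the mitochondrial chromosome, which carries no histones and was outside the chromosomes compared, and H3K9Ac replicate 1 listed 0. The 15 peaks scored 5.20 to 38.2 (median 16.2), had a median width of 393 bp and covered 7706 bp. The BRWD1 lists had 2 and 16 mitochondrial peaks and the H3S10pK14Ac lists 0 and 4, so in each antibody the replicate 2 list had more.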

How the results depend on the processing

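The 10 results were recomputed under alternatives that gave 75 values, besides 18 from 1 list alone. None of the 75 reversed, but the shared percentage and the highest-to-lowest chromosome ratio could not reverse by construction. Of the 75, 53 moved by less than the SD of the 2 lists (by less than 0.1 for the correlation over windows) and 22 by more. Values are means of both lists, and the gap ratio is a geometric mean. The BRWD1 difference also averages over both BRWD1 lists, here and for either H3K9Ac list alone. In H3K9Ac replicate 1 it joins 6.25% shared against 6.35% single for BRWD1 replicate 1 with 13.1% against 4.75% for BRWD1 replicate 2. An average that did not reverse can thus hold an opposite order for a single BRWD1 list. With a gap of at most 1 kb counted as shared, the shared percentage moved from 36.2% to 47.5%, the score percentile difference from 27.0 to 24.7 points and the BRWD1 difference from 5.43 to 3.03 points. The score difference was also 27.7 points with an overlap of at least 50% of the shorter peak, 23.99 points with 200 bp around each centre and 26.0 points with lists of equal length, where the highest-to-lowest chromosome ratio moved from 6.15 to 6.50. A further alternative limited all 6 lists to scores of 10 or more and took shared peaks and gaps anew. There the score difference was 20.1 points, the width ratio 1.32 (from 1.56) and the gap ratio 1.93 (from 14.7). The cluster difference was 4.25 points (from 13.8), the chromosome ratio 7.87 and the variance to mean 2.82 (from 6.09). The correlation between lists over windows was 0.706. The BRWD1 difference was 1.37 points, with −0.870 points in replicate 1, but the BRWD1 lists then held only 448 and 394 peaks. The SD of the gap ratio is wide, so its values of 6.15 with 200 bp around each centre and 39.8 with a gap of at most 1 kb lie within it. Merging peaks within 500 bp gave a width ratio of 1.91 and a gap ratio of 1.88. Without the sites that lie in both BRWD1 lists and H3S10pK14Ac replicate 2, the BRWD1 difference was 2.84 points and the H3S10pK14Ac difference 2.05 (from 4.69). Clusters of 2 or more peaks gave a cluster difference of 25.7 points, windows of 0.5 and 2 Mb a variance to mean of 4.42 and 8.34, and densities over occupied megabases a chromosome ratio of 5.77. The cause was not tested.

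With either list alone, which lies within the SD of the 2 lists by construction, the shared percentage was 29.2 to 43.2%, the width ratio 1.46 to 1.67, the score difference 26.6 to 27.4 points, the gap ratio 6.64 to 32.6, the cluster difference 6.22 to 21.5 points, the chromosome ratio 6.02 to 6.29, the variance to mean 5.84 to 6.34, the BRWD1 difference 4.14 to 6.73 points and the H3S10pK14Ac difference 3.23 to 6.16 points. The gap and cluster differences were larger in replicate 2. No paired analysis was possible because no model was fitted in which the replicate number could be a block; the contrast of shared with single peaks within each of 2 lists allows no exact p below 0.5. Since depth is unknown, a site missing from a list is not shown to lack the mark.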
